A study of Homo sapiens with 6 samples.

Results

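The genes described here are 60 cyclins, cyclin-dependent kinases (CDKs), E2F and RB family genes, DNA replication genes and mitosis genes, taken as a fixed list of symbols out of 56638 gene rows in each count table. All 60 symbols were found in the tables. They were divided by role into 16 genes of G1 and its exit, 17 genes of S phase and 27 genes of G2 and mitosis (G2/M). The libraries came from SW480, an established human colorectal adenocarcinoma line, and formed 2 groups of 3. The TGFB1 group was given TGF-β1, a secreted cytokine that signals through SMAD transcription factors, at 10 ng/ml and more than 4 times. The control group was the same line without treatment. Both groups grew in medium with fetal bovine serum and carried passages 16 to 19, and no genotype difference between them is given. The line is a single cell line, and separate cultures are not stated for the 3 libraries of a group, so each p-value reflects the spread among these samples alone, which may be technical.

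Cells leave G1 when CDK4 or CDK6, bound to a D-type cyclin, and then CDK2, bound to an E-type cyclin, phosphorylate RB and its relatives, which frees E2F factors to switch on replication genes. Origins are licensed when CDC6 and CDT1 load the MCM ring, and CDC45 and the GINS complex turn the ring into the working helicase. Genes needed for mitosis are transcribed later, through B-MYB (MYBL2) and FOXM1, at promoters that often carry a CHR element, a short site bound by the MuvB complex, and CCAAT boxes. TGF-β is known for halting many epithelial cells in G1, among other routes through the CDK inhibitor genes CDKN2B and CDKN1A, while colorectal cancer lines vary in this response.

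Before the levels, the regulatory letters that set these groups apart are shown from RefSeq promoter windows of build GRCh38.p14, 250 bases before to 50 bases after each gene's start. These coordinates are of another build than the counts. The letters searched on both strands were TTTCCCGC, TTTCGCGC, TTTGGCGC and TTTGCCGC for E2F, TTTGAA and TTCGAA for CHR, and CCAAT, and a gene counted once per motif in any of its windows, so overlapping matches did not add. Windows were matched for 47 of the 60 genes. E2F letters stood in the windows of 11 of 15 S-phase genes (73.3%), 4 of 11 G1 genes (36.4%) and 1 of 21 G2/M genes (4.76%), beside 3.99% of all 27305 genes with a window. CHR letters stood in 14 of 21 G2/M genes (66.7%), 1 of 15 S-phase genes and 2 of 11 G1 genes, beside 19.5% of all genes. CCAAT letters stood in 81.0% of G2/M genes and 73.3% of S-phase genes, beside 39.7% of all genes. Among the 9624 tested genes with a window, 6.53% held E2F letters, 15.5% CHR letters and 43.4% CCAAT letters. The S-phase and G2/M genes thus differed in the letters at their starts, as a description that is not a binding measurement. A match is not a site, and no match says only that these letters are not in this window.

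**Figure D1:**
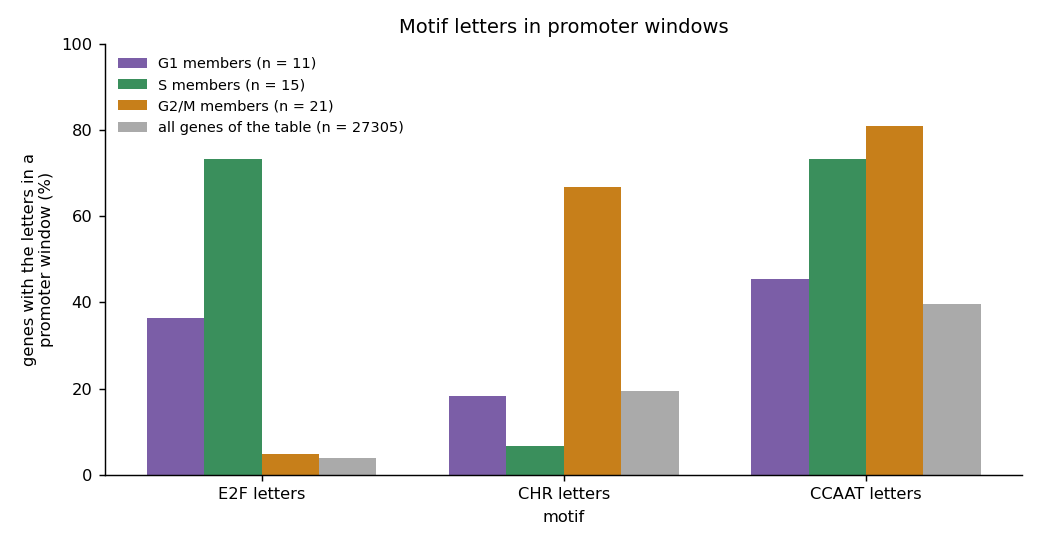
Share of genes (vertical axis, percent) whose promoter windows hold E2F, CHR or CCAAT letters, as bars for the 11 G1, 15 S and 21 G2/M genes with a window and, in grey, all 27305 genes of the promoter table. E2F letters are most frequent in the S bars (73.3%) and CHR letters in the G2/M bars (66.7%), while all genes reach 3.99% and 19.5%.

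Stretches of 7 promoters are printed because genes with like letters differed in their calls. They run 5′ to 3′ on the gene's strand, with matched E2F, CHR or CCAAT letters in capitals, and MKI67 has a CHR and a CCAAT match that share a base. E2F1 and E2F2 both carry TTTGGCGC, E2F1 beside a second E2F match, and the level of E2F1 was higher and that of E2F2 lower in TGFB1 libraries. MCM6 carries a pair of overlapping E2F matches at each of its places and did not pass the test. MKI67 and KIF11 were lower, BUB1B was higher and CDC20 did not pass, all with CHR letters near their starts.
E2F1 (chr20:33686396-33686505, minus strand): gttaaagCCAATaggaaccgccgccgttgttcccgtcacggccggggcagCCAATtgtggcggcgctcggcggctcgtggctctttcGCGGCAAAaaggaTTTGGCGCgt
E2F2 (chr1:23531254-23531353, minus strand): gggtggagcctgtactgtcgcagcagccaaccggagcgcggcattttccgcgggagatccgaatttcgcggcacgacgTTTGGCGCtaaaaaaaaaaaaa
MCM6 (chr2:135876494-135876603, minus strand): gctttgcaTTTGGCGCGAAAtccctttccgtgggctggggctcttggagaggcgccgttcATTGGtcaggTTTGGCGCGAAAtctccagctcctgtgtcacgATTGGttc
MKI67 (chr10:128126434-128126543, minus strand): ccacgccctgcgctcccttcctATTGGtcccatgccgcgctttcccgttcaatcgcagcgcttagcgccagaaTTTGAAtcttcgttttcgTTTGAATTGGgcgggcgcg
KIF11 (chr10:92593010-92593119, plus strand): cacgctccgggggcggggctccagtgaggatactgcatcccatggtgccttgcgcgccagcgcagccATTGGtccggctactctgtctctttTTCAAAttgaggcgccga
BUB1B (chr15:40160949-40161054, plus strand): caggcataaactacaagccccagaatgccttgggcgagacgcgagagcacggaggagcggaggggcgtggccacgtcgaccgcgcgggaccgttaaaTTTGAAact
CDC20 (chr1:43358861-43358960, plus strand): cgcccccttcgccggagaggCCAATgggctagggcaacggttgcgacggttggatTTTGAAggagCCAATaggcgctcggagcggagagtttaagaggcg

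The tables hold whole-number read counts, and the libraries held 13012898 to 16005222 counts in genes. Levels are given as CPM, counts scaled to a total of 1000000 after adjusting each library by TMM (a scaling that equalises the bulk of genes between libraries), as mean ± SD over 3 libraries. Log2 fold changes are TGFB1 over control ± SE, and adjusted p-values come from the quasi-likelihood test of edgeR, adjusted by Benjamini-Hochberg over all 14897 tested genes and called at under 0.05. Of 12 markers of colorectal epithelium 5 reached 1 CPM in control libraries, and of the 6 tested 4 were lower, 1 higher and 1 not called, with a summed level over the list of 1795 to 1837 CPM in TGFB1 libraries and 1917 to 1929 CPM in control libraries. The keratin KRT18 stood at 125 ± 2.59 CPM in TGFB1 libraries and 183 ± 7.35 CPM in control libraries (−0.55), and EPCAM, AXIN2 and CDH1 were lower too, with log2 fold changes of −0.79, −0.43 and −1.98. The stem cell marker LGR5 was higher (1.75), at 1.03 ± 0.128 CPM in TGFB1 libraries and 0.299 ± 0.0920 CPM in control libraries. KRT8, the partner of KRT18, did not pass, at 1675 ± 20.5 CPM in TGFB1 libraries and 1708 ± 1.27 CPM in control libraries, while CDX2 and ASCL2 had 0 counts in all libraries and VIL1, CDX1, KRT19 and KRT20 had at most 6 summed over a group. Of 10 fibroblast markers 5 were tested and all 5 were higher, PDGFRB, DCN and FAP among them, 4 of the 5 by at least 1.5-fold. Their log2 fold changes ran from 0.37 to 5.18, with a median of 1.12. The list summed to 121 to 136 CPM in TGFB1 libraries and 91.6 to 95.3 CPM in control libraries. COL1A2, COL3A1 and PDGFRA had 1 to 3 counts summed over the TGFB1 libraries and 0 in control libraries. Of 9 immune and endothelial markers PTPRC and PECAM1 had 0 counts in all libraries. The part of such markers in the results was not tested.

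Of the 60 genes 59 had enough counts to be tested, all but CCND2, and 37 of them (62.7%) changed, beside 47.3% of all tested genes. In TGFB1 libraries 13 genes (22.0%) were higher, beside 23.4% of all tested genes, and 24 (40.7%) were lower, beside 23.9% of all tested genes. The cell cycle genes are well-counted, with a median level of 136 CPM in control libraries over those tested. Among 9548 tested genes of at least 10 CPM there, 53.6% changed, 23.0% higher and 30.6% lower. Under plain library-size scaling the split was 19 higher and 21 lower. The changes were small: only CCND3, CCNE1 and CCND1 changed at least 1.5-fold with an adjusted p under 0.05. They are 5.08%, beside 18.3% of all tested genes and 12.4% of those of at least 10 CPM. In 43 of the 59 genes (72.9%) no TGFB1 library overlapped the control range, with 14 genes above it and 29 below. The same held for 54.2% of all tested genes and 59.8% of those of at least 10 CPM. In bulk RNA, fewer cells in a phase and less RNA per cell cannot be told apart.

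By phase, G2/M genes were 27 of the 59 tested and held 15 of the 24 falls. Of 15 tested G1 genes 7 rose (46.7%), 5 fell (33.3%) and 3 did not pass, and the median log2 fold change was 0.09. Of 17 S-phase genes 2 rose (11.8%), 4 fell (23.5%) and 11 did not pass, with a median of −0.036. Under plain library-size scaling 5 of them rose and 3 fell, and under upper-quartile scaling 4 and 4. Of 27 G2/M genes 4 rose (14.8%), 15 fell (55.6%) and 8 did not pass, with a median of −0.17. The median over all tested genes was 0.00033, with 23.4% higher and 23.9% lower. Among tested genes of at least 10 CPM in control libraries it was −0.029, with 23.0% higher and 30.6% lower. The S-phase share that fell was near the 23.9%, the G1 share near the 30.6% and the S-phase median near −0.029. Taken per library against the mean of the controls, the G2/M median was −0.20, −0.18 and −0.16 in TGFB1 libraries 1, 2 and 3, against 0.011, 0.0072 and −0.0094 in control libraries 1, 2 and 3. For S-phase genes the same medians were −0.019, −0.022 and −0.061 in TGFB1 libraries, against −0.0045, 0.033 and −0.016 in control libraries. For G1 genes they were 0.0995, 0.11 and 0.061 in TGFB1 libraries, against 0.055, −0.028 and 0.0055 in control libraries. The groups did not overlap in any of the 3, but for G1 and S-phase genes the nearest libraries lay close together. The sums were lower in TGFB1 libraries for all 3 phase groups. The G2/M genes summed to 5968 ± 98.9 CPM in TGFB1 libraries and 6844 ± 84.6 CPM in control libraries (SD, n = 3 each). The S-phase genes summed to 3155 ± 18.0 CPM in TGFB1 libraries and 3271 ± 42.4 CPM in control libraries. The G1 genes summed to 1561 ± 17.6 CPM in TGFB1 libraries and 1650 ± 8.90 CPM in control libraries, although their median was higher. No test was run over these medians and sums, since the genes were chosen with results known.

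**Figure D2:**
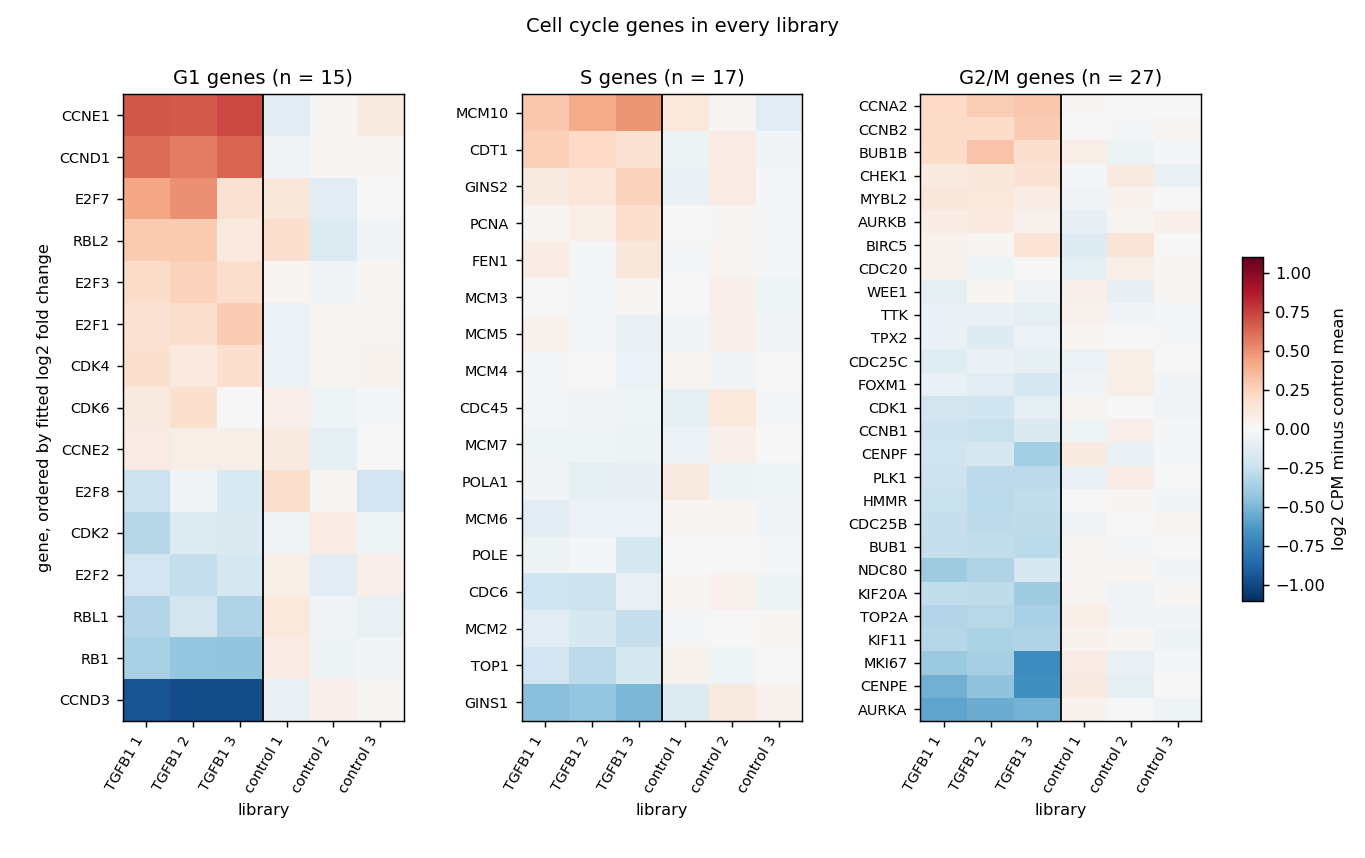
Log2 CPM of each tested gene (rows, ordered by fitted fold change within G1, S and G2/M) in each library (columns, 3 TGFB1 libraries left of 3 control libraries), minus the mean of the controls, with red above and blue below it. Blue fills most of the lower rows of the G2/M panel in all 3 TGFB1 libraries, and the darkest row is CCND3, at a log2 fold change of −0.97.

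The largest changes were in the D-type and E-type cyclins, and they went in opposite directions. CCND3, cyclin D3, had 226, 221 and 222 CPM in TGFB1 libraries 1, 2 and 3, against 413, 453 and 442 CPM in control libraries 1, 2 and 3. Every TGFB1 library lay below every control library, a log2 fold change of −0.97 ± 0.048 (1.95-fold lower, edgeR adjusted p = 4.24e-16). CCND1, cyclin D1, had 226, 219 and 231 CPM in the TGFB1 libraries and 144, 149.8 and 150.3 CPM in the control libraries. It was higher in 3 of 3 TGFB1 libraries and rose 1.52-fold (0.61 ± 0.048, edgeR adjusted p = 1.36e-11). CCND2, cyclin D2, had 0, 1 and 0 counts in TGFB1 libraries and 6, 2 and 6 in control libraries, a ratio of 0.0693 with an exact 95% counting interval of 0.00164 to 0.455. It did not pass the filter on low counts and thus has no test in the fit, and without that filter it counts among the genes that fell.

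Per length of the longest GENCODE 29 transcript, CCND3 had the highest value of the D-type cyclins in both groups. It stood at 93.1 CPM per kilobase in TGFB1 libraries and 182 in control libraries, and CCND1 at 52.4 in TGFB1 libraries and 34.4 in control libraries. That transcript has 2394 bases for CCND3 and 4307 for CCND1, while all exons of these genes cover 3942 and 4405 bases. The values, shares and ratio per length thus depend on the length chosen, and a longer one would lower CCND3 most. CCND1 made up 36.0% ± 0.623 of the D-type cyclin total per length in TGFB1 libraries and 15.9% ± 0.377 in control libraries (SD, n = 3 each). The ratio of CCND1 to CCND3 per length was 0.562 ± 0.0152 in TGFB1 libraries and 0.189 ± 0.00536 in control libraries. About 11.3% of the exon bases of CCND1 are shared with LTO1 on the opposite strand, and since the strand setting of the counter is not given, reads there cannot be told apart.

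The partner kinases of these cyclins moved little. CDK4 had 212, 203 and 214 CPM in TGFB1 libraries and 179.5, 192 and 192 CPM in control libraries, and rose 1.11-fold (edgeR adjusted p = 0.00863). Leaving out control 1 ended that call (edgeR adjusted p = 0.0636). TSPAN31 on the opposite strand shares 51.9% of its exon bases, so its level is uncertain. CDK6 had 358, 377 and 333 CPM in TGFB1 libraries and 347, 324 and 332 CPM in control libraries. The groups overlapped and it did not pass (edgeR adjusted p = 0.141, 95% interval of the log2 fold change −0.012 to 0.19), although it passed under plain library-size scaling (edgeR adjusted p = 0.0165), without TGFB1 3 (0.0139) and under GC and length offsets (0.000268).

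Among the E-type cyclins, CCNE1, cyclin E1, had 42.6, 42.2 and 43.8 CPM in TGFB1 libraries and 24.5, 26.7 and 28.3 CPM in control libraries. All 3 TGFB1 libraries stood above all controls, and the gene rose 1.61-fold (0.69 ± 0.072, edgeR adjusted p = 4.03e-09), the largest rise on the list. Its paralog CCNE2 had 12.3, 12.1 and 12.1 CPM in TGFB1 libraries and 12.4, 10.7 and 11.6 CPM in control libraries. It did not pass (edgeR adjusted p = 0.625, 95% interval −0.15 to 0.29), and 47.5% of its exon bases are shared with INTS8 on the opposite strand. CDK2, the kinase partner of both, was lower at 105 ± 6.44 CPM in TGFB1 libraries and 121 ± 6.10 CPM in control libraries (−0.21 ± 0.056, edgeR adjusted p = 0.003). That call ended without TGFB1 1 (edgeR adjusted p = 0.0506).

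**Figure D3:**
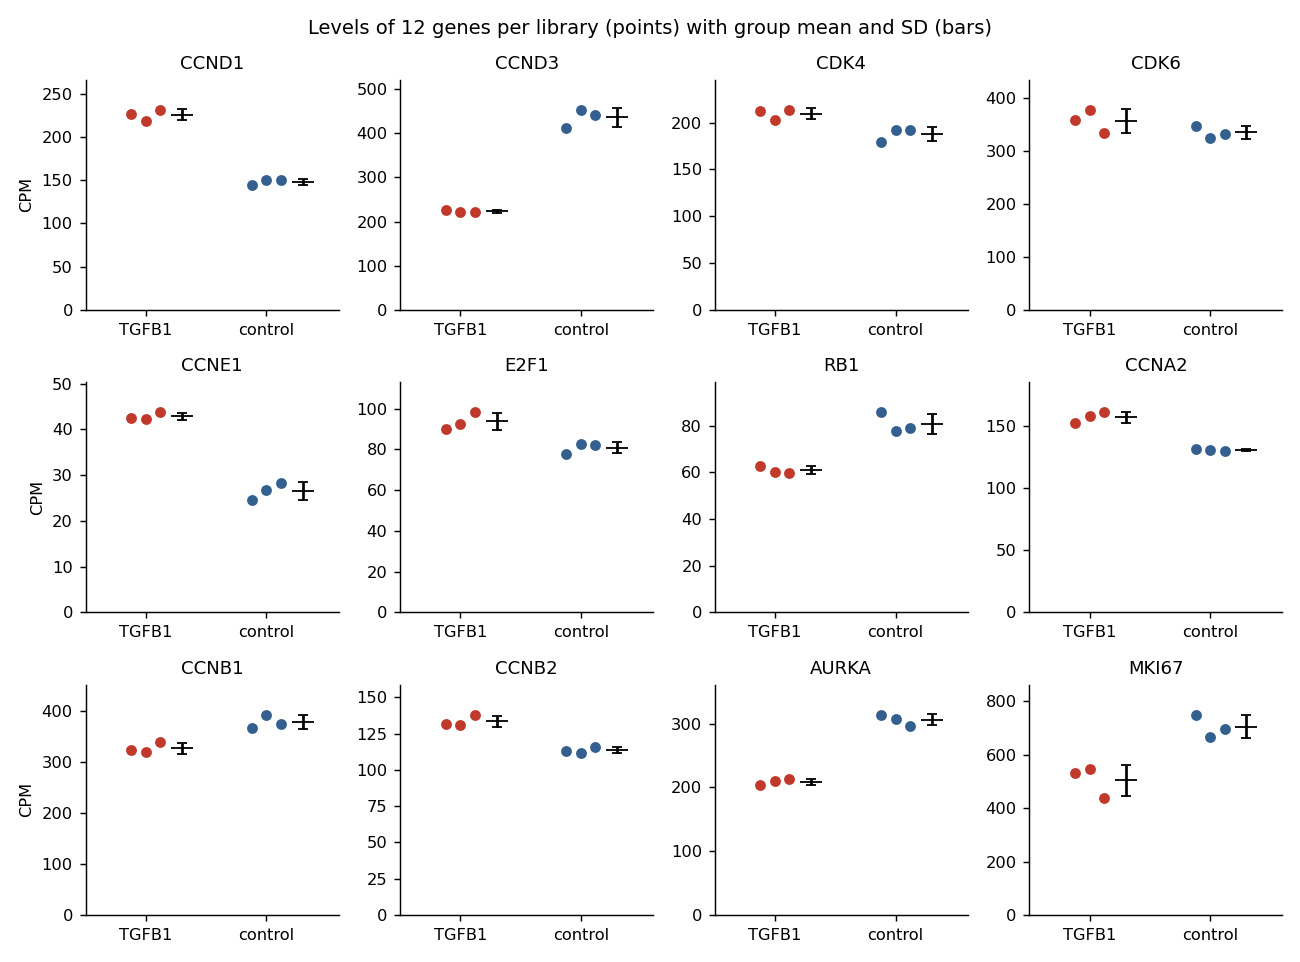
CPM (vertical axes, from 0) of 12 genes in the 3 TGFB1 libraries (red points, left) and the 3 control libraries (blue points, right), with the group mean and SD as black bars. CCND1, CDK4, CCNE1, E2F1, CCNA2 and CCNB2 stand higher in TGFB1 libraries and CCND3, RB1, CCNB1, AURKA and MKI67 lower, while CDK6 overlaps.

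The RB family, which holds E2F factors in check, was split. RB1 had 62.9, 59.96 and 59.8 CPM in TGFB1 libraries and 85.8, 77.7 and 78.9 CPM in control libraries. It was lower in 3 of 3 TGFB1 libraries, by 1.33-fold (−0.41 ± 0.060, edgeR adjusted p = 1.76e-06). RBL1, which encodes p107, had 36.4, 39.7 and 36.2 CPM in TGFB1 libraries and 49.4, 44.4 and 43.2 CPM in control libraries, and fell 1.22-fold (edgeR adjusted p = 0.00137). RBL2, which encodes p130, the family member most abundant in resting cells, averaged 30.8 ± 2.13 CPM in TGFB1 libraries and 26.4 ± 3.05 CPM in control libraries. Its groups overlapped, and its call of a rise (edgeR adjusted p = 0.0245) ended in DESeq2 (DESeq2 adjusted p = 0.0632) and without TGFB1 1, TGFB1 2, control 2 or control 3 (edgeR adjusted p = 0.0807 to 0.170).

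E2F factors that activate transcription and those that repress it did not separate by direction. The activators E2F1 and E2F3 rose 1.16-fold and 1.16-fold. E2F1 had 90.2, 92.7 and 98.2 CPM in TGFB1 libraries and 77.6, 82.8 and 82.3 CPM in control libraries (edgeR adjusted p = 0.00275), and E2F3 averaged 74.0 ± 1.90 CPM in TGFB1 libraries and 63.7 ± 1.09 CPM in control libraries (edgeR adjusted p = 0.00262). The third activator, E2F2, was lower, at 27.2 ± 0.725 CPM in TGFB1 libraries and 31.7 ± 2.24 CPM in control libraries (edgeR adjusted p = 0.0162), a call that ended in DESeq2 (DESeq2 adjusted p = 0.0525), under plain library-size scaling (edgeR adjusted p = 0.0749) and without TGFB1 2, control 1 or control 3 (0.0594, 0.0621 and 0.0733). Of the repressors, E2F7 had 47.5, 50.1 and 39.9 CPM in TGFB1 libraries and 38.6, 32.7 and 35.3 CPM in control libraries, and rose 1.30-fold (edgeR adjusted p = 0.000296). E2F8 averaged 17.6 ± 1.27 CPM in TGFB1 libraries and 19.6 ± 2.71 CPM in control libraries and did not pass (edgeR adjusted p = 0.243, 95% interval −0.35 to 0.058).

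S-phase genes, most of them with E2F letters at their starts, moved least in fitted size, with a median absolute log2 fold change of 0.086. The same median was 0.22 for G1 genes, 0.23 for G2/M genes and 0.24 for all tested genes. Among tested genes of at least 10 CPM in control libraries it was 0.185. Of the 6 subunits of the MCM ring, 5 did not pass, with log2 fold changes of −0.08 (MCM6) to 0.00 (MCM3). MCM3, at 341 ± 5.23 CPM in TGFB1 libraries and 340.2 ± 11.9 CPM in control libraries, had a 95% interval of −0.091 to 0.098, and MCM4, at 359 ± 8.14 CPM in TGFB1 libraries and 365 ± 7.12 CPM in control libraries, one of −0.12 to 0.07. MCM5, MCM6 and MCM7 had intervals of −0.12 to 0.085, −0.18 to 0.019 and −0.14 to 0.045. Changes of more than 1.5-fold in either direction lay outside all 5 intervals. MCM6 lay below all controls in the TGFB1 libraries. MCM7 passed as lower under GC and length offsets (−0.10, edgeR adjusted p = 0.0188). MCM2 had 519, 501 and 477 CPM in TGFB1 libraries and 560.1, 566 and 575 CPM in control libraries, and it fell 1.14-fold (edgeR adjusted p = 0.00146), with 30.7% of its exon bases shared with an antisense gene. Per length, the subunits ran in TGFB1 libraries from MCM5 at 37.8 CPM per kilobase to MCM7 at 149.6, and in control libraries from MCM5 at 38.2 to MCM2 at 157. The longest transcript of MCM7 has 3084 bases and its exons cover 3652, so its place in this order depends on the length chosen.

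Genes that load and fire origins moved in both directions. CDT1 and CDC6 load the ring together. CDT1 had 71.4, 69.2 and 67.0 CPM in TGFB1 libraries and 57.3, 63.3 and 58.3 CPM in control libraries, and rose 1.16-fold (edgeR adjusted p = 0.00436). CDC6 had 117, 116 and 128 CPM in TGFB1 libraries and 137, 140.1 and 130.5 CPM in control libraries and fell 1.13-fold (edgeR adjusted p = 0.00664). That call ended under plain library-size scaling (edgeR adjusted p = 0.0598) and without TGFB1 1 (0.0509). MCM10, a firing factor that is not a subunit of the ring, had 56.4, 60.9 and 64.4 CPM in TGFB1 libraries and 49.996, 46.4 and 42.1 CPM in control libraries. Its rise of 1.31-fold (0.39 ± 0.069, edgeR adjusted p = 2.68e-05) was the largest among the S-phase genes. GINS1, a subunit of the GINS complex, showed their largest fall, with 26.5, 27.1 and 25.9 CPM in TGFB1 libraries and 32.9, 39.1 and 37.7 CPM in control libraries (1.38-fold lower, −0.47 ± 0.076, edgeR adjusted p = 8.94e-06). Its partner GINS2 lay above all controls in the 3 TGFB1 libraries, at 41.8 ± 2.35 CPM in TGFB1 libraries and 37.4 ± 2.26 CPM in control libraries, and did not pass (edgeR adjusted p = 0.0614). It passed under plain library-size scaling (edgeR adjusted p = 0.0116), with upper-quartile scaling (0.0330) and without control 2 (0.0357). CDC45 averaged 81.2 ± 0.757 CPM in TGFB1 libraries and 83.2 ± 6.43 CPM in control libraries and did not pass (95% interval −0.16 to 0.086).

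Of 5 fork enzymes and polymerase genes, TOP1 fell and 4 did not pass. PCNA, the clamp that tethers polymerases to DNA, had 171, 176 and 191 CPM in TGFB1 libraries and 167, 169 and 166 CPM in control libraries. All 3 TGFB1 libraries lay above the controls, yet it did not pass (edgeR adjusted p = 0.109), and it passed under plain library-size scaling (edgeR adjusted p = 0.0113), with upper-quartile scaling (0.0491) and under GC and length offsets (0.0454). POLA1 and POLE, catalytic subunits of the priming and the leading-strand polymerase, had log2 fold changes of −0.08 ± 0.055 and −0.09 ± 0.052, and the flap nuclease FEN1 one of 0.06 ± 0.049. None of these 3 passed (edgeR adjusted p = 0.266, 0.184 and 0.313), although FEN1 passed under plain library-size scaling (0.0419) and POLE under GC and length offsets (0.0357). POLE lay below all controls in the TGFB1 libraries. TOP1, the topoisomerase that irinotecan poisons, had 141, 134 and 142 CPM in TGFB1 libraries and 168, 158 and 164 CPM in control libraries, and fell 1.17-fold (edgeR adjusted p = 0.000281).

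**Figure D4:**
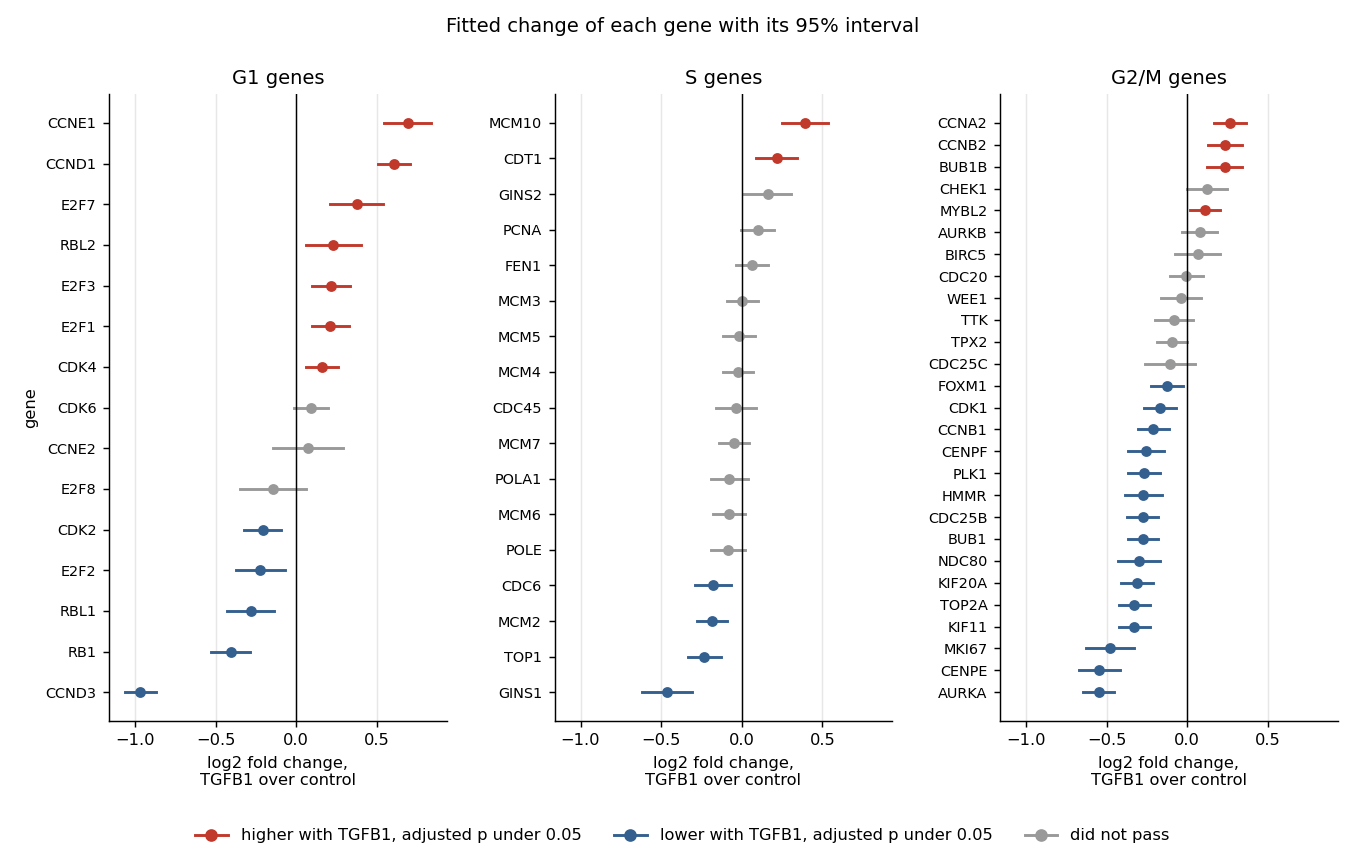
Log2 fold change of TGFB1 over control (horizontal axis) for each tested gene, with points for the fitted value and lines for its 95% interval, in panels for G1, S and G2/M genes; red marks higher, blue lower and grey not past the test. The S panel is mostly grey (11 of 17), and 15 of the 27 G2/M genes are blue.

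Mitotic cyclins split by direction, 2 of them higher and 1 lower. CCNA2, cyclin A2, which acts in S phase and G2, had 152, 158 and 161 CPM in TGFB1 libraries and 132, 130.3 and 129.9 CPM in control libraries. It was higher in 3 of 3 TGFB1 libraries, by 1.20-fold (0.26 ± 0.048, edgeR adjusted p = 4.84e-05). CCNB1, cyclin B1, the main partner of CDK1 in mitosis, had 324, 319 and 339 CPM in TGFB1 libraries and 367, 394 and 376 CPM in control libraries, and fell 1.16-fold (edgeR adjusted p = 0.000489). CCNB2, cyclin B2, went the other way, with 132, 131 and 138 CPM in TGFB1 libraries and 113, 112 and 116 CPM in control libraries (1.18-fold higher, edgeR adjusted p = 0.000326). Per length, the ratio of CCNB1 to CCNB2 was 2.83 ± 0.0133 in TGFB1 libraries and 3.85 ± 0.190 in control libraries (SD, n = 3 each). The longest transcripts have 2169 bases for CCNB1 and 2503 for CCNB2, and the size of the ratio depends on the lengths chosen. CDK1 had 221, 219 and 238 CPM in TGFB1 libraries and 259.7, 255 and 248 CPM in control libraries and fell 1.13-fold (edgeR adjusted p = 0.00406).

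The transcription factors of the mitotic genes lay at the threshold. FOXM1 averaged 226 ± 8.81 CPM in TGFB1 libraries and 247 ± 9.23 CPM in control libraries and was called lower (edgeR adjusted p = 0.0319), and MYBL2 averaged 422 ± 6.20 CPM in TGFB1 libraries and 391.5 ± 11.1 CPM in control libraries and was called higher (edgeR adjusted p = 0.0488). FOXM1 lost its call under plain library-size scaling (edgeR adjusted p = 0.230), with upper-quartile scaling (0.0915), with the replicate block (0.0768) and without TGFB1 2, TGFB1 3 or control 2 (0.0634 to 0.125). The call of MYBL2 ended without TGFB1 1, TGFB1 2 or any control (edgeR adjusted p = 0.0575 to 0.179), with no filter on low counts (0.0978), with the replicate block (0.136) and under GC and length offsets (0.199).

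Kinases and phosphatases that control entry into mitosis were lower or did not pass. AURKA, the centrosomal Aurora kinase, had 204, 209.7 and 213 CPM in TGFB1 libraries and 314, 308 and 297 CPM in control libraries. This was the largest fall among the G2/M genes, 1.46-fold (−0.55 ± 0.047, edgeR adjusted p = 6.46e-11). Its relative AURKB, which acts at centromeres with BIRC5 (survivin), had 125, 127 and 122 CPM in TGFB1 libraries and 111, 121 and 123 CPM in control libraries and did not pass (edgeR adjusted p = 0.251, 95% interval −0.032 to 0.18), although it was called higher under plain library-size scaling (edgeR adjusted p = 0.0378). BIRC5 did not pass either, at 64.8 ± 3.11 CPM in TGFB1 libraries and 61.9 ± 5.95 CPM in control libraries. PLK1, a kinase that drives mitotic entry, fell 1.20-fold, to 243 ± 5.71 CPM in TGFB1 libraries, against 292 ± 15.9 CPM in control libraries (edgeR adjusted p = 3.96e-05). CDC25B, a phosphatase that activates CDK1, fell 1.21-fold, to 164 ± 1.97 CPM in TGFB1 libraries, against 198 ± 4.98 CPM in control libraries (edgeR adjusted p = 1.71e-05). CDC25C, the opposing kinase WEE1, and the checkpoint kinases CHEK1 and TTK did not pass, with log2 fold changes of −0.11 ± 0.075, −0.04 ± 0.061, 0.12 ± 0.060 and −0.08 ± 0.057. CDC25C and TTK lay below all controls in the TGFB1 libraries. CHEK1 was called higher under plain library-size scaling, with upper-quartile scaling, without control 2 and under GC and length offsets (edgeR adjusted p = 0.0151, 0.0482, 0.0439 and 0.0349).

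Kinetochore, spindle and chromosome genes held 9 of the 15 falls among the 27 G2/M genes. Of 6 spindle checkpoint and kinetochore genes 4 fell (66.7%), and of 7 motor, spindle and chromosome genes 5 fell (71.4%). These shares stand beside 55.6% of all G2/M genes and 23.9% of all tested genes. CENPE, a kinetochore motor, had 77.4, 82.5 and 70.0 CPM in TGFB1 libraries and 119.6, 104 and 112 CPM in control libraries (1.46-fold lower, −0.55 ± 0.063, edgeR adjusted p = 2.42e-08). KIF11, the motor that pushes spindle poles apart, had 168, 164 and 166 CPM in TGFB1 libraries and 214, 211 and 201 CPM in control libraries and fell 1.26-fold (edgeR adjusted p = 1.39e-06). KIF20A, a cytokinesis motor, had 270.1, 269 and 248 CPM in TGFB1 libraries and 332, 317 and 328 CPM in control libraries and fell 1.24-fold (edgeR adjusted p = 3.63e-06). BUB1, a spindle checkpoint kinase, had 206, 205 and 201 CPM in TGFB1 libraries and 251, 244 and 247 CPM in control libraries and fell 1.21-fold (edgeR adjusted p = 1.13e-05). The kinetochore genes NDC80 and CENPF and the spindle gene HMMR fell 1.23-fold, 1.19-fold and 1.21-fold. BUB1B, which encodes the checkpoint protein BUBR1, rose instead, with 151, 163 and 148 CPM in TGFB1 libraries and 138, 127 and 129.7 CPM in control libraries (1.17-fold, edgeR adjusted p = 0.000535). CDC20, the activator of the anaphase-promoting complex that the checkpoint inhibits, had 318, 299.5 and 309.7 CPM in TGFB1 libraries and 289, 327 and 314 CPM in control libraries, overlapping groups that did not differ past the test (edgeR adjusted p = 0.941, 95% interval −0.11 to 0.096). TPX2, a spindle assembly factor, lay below all controls in the TGFB1 libraries, at 544 ± 15.5 CPM in TGFB1 libraries and 581 ± 8.54 CPM in control libraries, and did not pass (edgeR adjusted p = 0.0821). It passed as lower without TGFB1 3 (edgeR adjusted p = 0.0348) and under GC and length offsets (0.0130).

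MKI67 and TOP2A, 2 G2/M genes much used to mark dividing cells, both fell. The S-phase gene PCNA did not pass, and its 3 TGFB1 libraries lay above the controls. MKI67, which encodes the Ki-67 antigen, had 531, 545 and 436 CPM in TGFB1 libraries and 749.9, 665 and 698 CPM in control libraries (1.40-fold lower, −0.48 ± 0.070, edgeR adjusted p = 2.56e-05). TOP2A, the topoisomerase that untangles chromosomes, had 625, 632 and 609 CPM in TGFB1 libraries and 819, 761 and 763 CPM in control libraries (1.26-fold lower, edgeR adjusted p = 8.26e-07). TGFB1 3 was the lowest library for MKI67, CENPE and CENPF, which have the longest transcripts among the falling G2/M genes, at 12678, 8612 and 10307 bases. Libraries differed in how levels ran with transcript length, with slopes per log2 of length of −0.0018, 0.011 and −0.040 in TGFB1 libraries 1, 2 and 3, against 0.040, −0.015 and 0.0049 in control libraries 1, 2 and 3. Under GC and length offsets their log2 fold changes were −0.43, −0.48 and −0.19 (edgeR adjusted p = 1.39e-10, 1.13e-09 and 4.8e-05), and without TGFB1 3 they were −0.39, −0.49 and −0.20.

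Wider lists were counted in the same fit, to be read against 23.4% higher and 23.9% lower among all tested genes, or 23.0% and 30.6% among genes of at least 10 CPM in control libraries. The phase lists are the S-phase and G2/M score genes shipped with the Seurat package, counted here without the listed genes they share. Of 30 further S-phase genes 9 rose, 4 fell and 17 did not pass, with a median log2 fold change of 0.074. UHRF1, a maintenance methylation factor, stood at 142 ± 2.70 CPM in TGFB1 libraries and 98.9 ± 1.53 CPM in control libraries (edgeR adjusted p = 7.19e-10), and UNG, a uracil DNA glycosylase, and the primase subunit PRIM1 rose 1.37-fold and 1.58-fold. Of 37 further G2/M genes 3 rose, 26 fell and 8 did not pass, with a median of −0.21. HJURP, a chaperone of centromeric histone, stood at 67.8 ± 0.553 CPM in TGFB1 libraries and 97.8 ± 1.32 CPM in control libraries (edgeR adjusted p = 3.3e-09), and PSRC1 and GTSE1 fell 1.47-fold and 1.39-fold. Of 15 genes that act at origins or restrain them, 4 rose (26.7%) and 11 did not pass (median −0.0099). Those that rose were ORC2, an origin recognition subunit, GINS3 and GINS4, helicase subunits, and GMNN, which encodes geminin, the inhibitor of CDT1, and which is also among the S-phase score genes. In this list GINS3 stood at 24.2 ± 2.72 CPM in TGFB1 libraries and 16.6 ± 1.90 CPM in control libraries.

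**Figure D5:**
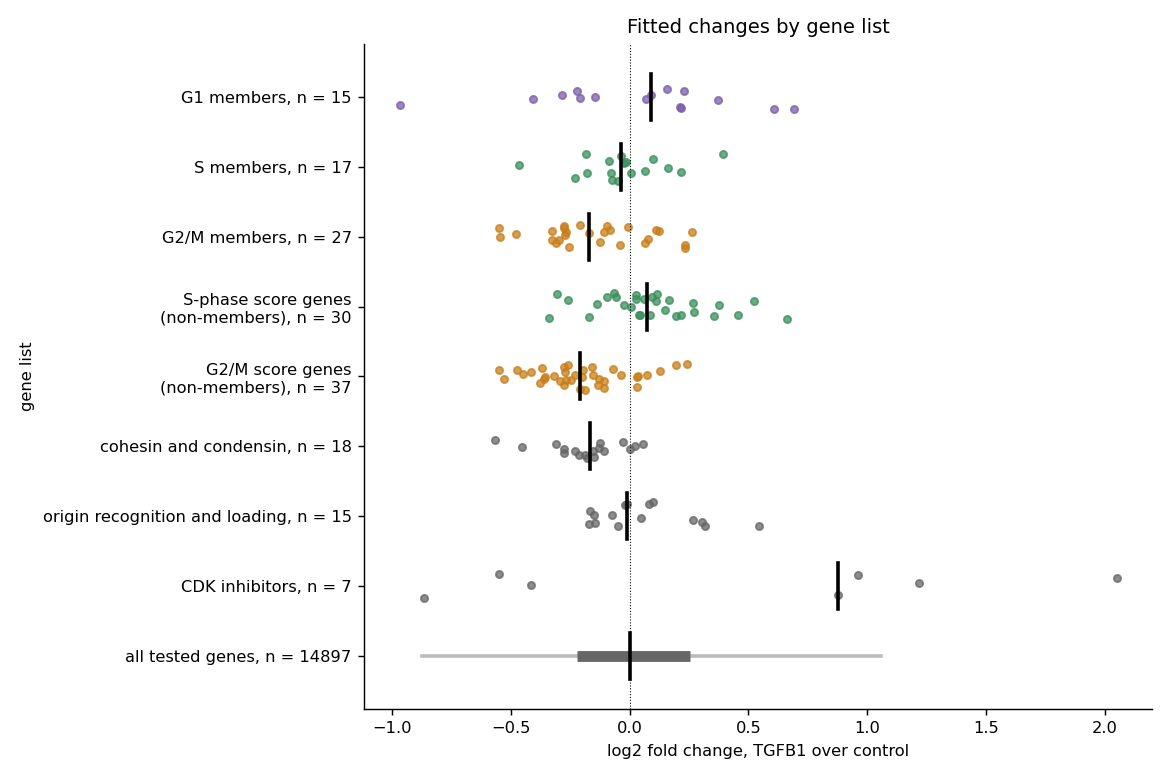
Fitted log2 fold changes of TGFB1 over control (horizontal axis), 1 point per gene, for the listed G1, S and G2/M genes and for other cell cycle lists, with a black bar at each median; for all 14897 tested genes the thick line spans the 25th to 75th percentile and the thin line the 5th to 95th. The G2/M rows have medians of −0.17 and −0.21, the S rows −0.036 and 0.074, and the CDK inhibitors spread from −0.87 to 2.05.

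Genes for inhibitors of these kinases changed in both directions. Of 7 CDK inhibitor genes 4 rose, 2 fell and 1, CDKN2D, did not pass. CDKN2B, which encodes p15, a known TGF-β target, had 69.1, 71.2 and 66.4 CPM in TGFB1 libraries and 17.2, 14.5 and 18.2 CPM in control libraries (4.14-fold higher, edgeR adjusted p = 7.4e-19), and its reads cannot be told apart from those of any antisense transcript. CDKN1C, CDKN1A and CDKN2A rose 2.32-fold, 1.95-fold and 1.84-fold. CDKN1B, which encodes p27, averaged 35.6 ± 0.395 CPM in TGFB1 libraries and 65.0 ± 3.88 CPM in control libraries and fell 1.83-fold (edgeR adjusted p = 4.95e-12), and CDKN2C fell 1.47-fold.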

How the data were processed

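RNA sequencing of total RNA gave 1 table of read counts per gene symbol and library, which the authors deposited as whole-number counts without normalization. The submitters' processing notes list TopHat2 2.0.11, TopHat, HTSeq, hg19 and GRCh37, with no roles. Not given in the sources used here are the annotation, the strand setting and any filters. Counter totals stayed out: no-feature reads were 5.44% to 5.98% of the table totals, multiply aligned ones 12.0% to 12.5% and ambiguous ones 9.01% to 9.43%, which lowers genes with close copies or overlaps. Of the 60 genes, 20 share exon bases with another gene in GENCODE 29.

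In R 4.3.3, genes passing edgeR 4.0.16 filterByExpr (minimum count 10, total 15; 14897 of 56638) were TMM-scaled and fitted with robust glmQLFit and glmQLFTest. Each standard error is the absolute log2 fold change over the root of F. Alternatives were DESeq2 1.42.0, limma-voom (limma 3.58.1), other scalings and filters, the replicate block, leaving out each library and, added after the data were seen, GC and length offsets. The test was tried on simulated counts. The genes and lists were chosen with earlier results of these data known. Values per library are given for 15 fixed genes, for the called genes of each phase with the lowest p (up to 6) and for called genes of at least 1.5-fold, and up to 3 genes of each wider list are named by lowest p. All 4 origin genes that rose and all CDK inhibitors are named too, and some other genes are given per library, chosen after their values were seen. MLF1IP of the S-phase list was not matched to the tables. Within groups, library pairs varied beyond sampling noise (chi-square per degree of freedom 1.76 to 4.34).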

Additional observations from a re-analysis of the deposited data

How the results depend on the processing

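Of the 37 called genes 30, 10 higher and 20 lower, kept direction and call under all 15 alternatives, and no gene with a call reversed. Under plain library-size scaling the all-gene median moved to 0.057, 5 S-phase genes were higher, and the phase medians were 0.15 for G1, 0.021 for S and −0.12 for G2/M. With upper-quartile scaling 4 S-phase genes were higher, and the medians were −0.012 for S and −0.15 for G2/M. With GC and length offsets the S median was −0.063. Leaving out 1 library at a time gave 11 to 14 higher and 22 to 24 lower genes, 6115 to 6816 calls among all genes, and medians of 0.061 to 0.14 for G1, −0.053 to −0.029 for S and −0.20 to −0.15 for G2/M. By group these runs gave 6 to 8 higher and 4 to 5 lower G1 genes, 2 to 3 higher and 3 to 4 lower S genes, and 3 to 4 higher and 14 to 15 lower G2/M genes.

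Same-numbered libraries did not deviate from their group means together (correlations across 10088 genes of 0.032, −0.33 and −0.074). Differently numbered ones gave −0.27 (TGFB1 3 with control 1) to 0.33 (TGFB1 3 with control 2). The numbers thus gave no sign of pairing, but with 3 libraries a group these correlations cannot exclude it. With the replicate block 12 genes were higher and 23 lower, of 6775 calls among all genes, and FOXM1 and MYBL2 lost their calls. With 3 libraries a group and changes mostly under 1.5-fold, a gene that did not pass may still differ by as much as its interval allows. At this depth CCND2 had 1 count in TGFB1 libraries and 14 in control libraries. Counting intervals cover counting error only.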

Other observations

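Most genes of chromosome structure were lower in TGFB1 libraries. Of 18 cohesin and condensin genes 13 fell (72.2%) and 5 did not pass, with a median log2 fold change of −0.17, beside 23.9% lower among all tested genes and 30.6% among those of at least 10 CPM in control libraries. RAD21, the cohesin subunit that separase cuts, averaged 352 ± 4.03 CPM in TGFB1 libraries and 521 ± 15.5 CPM in control libraries (1.48-fold lower, edgeR adjusted p = 1.91e-11). ESPL1, which encodes separase, and the condensin subunit NCAPG fell 1.37-fold and 1.24-fold. Of 16 genes of the anaphase-promoting complex and its partners 5 fell (31.2%) and 2 rose (12.5%), and the median was −0.029, so the share that fell was close to the 30.6% of genes of at least 10 CPM. In it UBE2C, its E2 enzyme, stood at 164 ± 12.3 CPM in TGFB1 libraries and 212 ± 11.8 CPM in control libraries, and the subunits CDC27 and ANAPC1 fell 1.23-fold and 1.17-fold. UBE2C is also among the G2/M score genes counted above.

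Other cyclins and CDKs, listed together with CDC25A and PKMYT1, which are neither, changed in both directions. Among the 17 tested genes of this list 7 rose (41.2%) and 5 fell (29.4%), with a median of 0.011. These shares stand beside 23.4% and 23.9% of all tested genes. PKMYT1 is among those that rose, and CDC25A did not pass. CCNG1, cyclin G1, a p53 target, averaged 44.4 ± 2.40 CPM in TGFB1 libraries and 75.4 ± 1.73 CPM in control libraries (1.698-fold lower, edgeR adjusted p = 2.52e-11), and CDK16 and CCNF fell 1.22-fold and 1.23-fold. Of 12 further E2F, DP and MuvB-related genes 3 rose and 3 fell, with a median of −0.094. Each is 25% of the list, near the 23.4% and 23.9% of all tested genes. TFDP2, a dimer partner of E2F factors, and LIN9, a MuvB subunit, rose 1.57-fold and 1.38-fold, and DYRK1A, a kinase that promotes assembly of the DREAM complex, fell 1.35-fold (edgeR adjusted p = 5.22e-06).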
